A study of Homo sapiens with 18 samples.

Results

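Gene expression was compared directly between A549 cells given siRNA1 and A549 cells given siRNA3, both small interfering RNAs directed against BLM. A549 is a lung adenocarcinoma cell line. The comparison used 6 of the 18 libraries of the study, 3 for each siRNA, and took as members all genes with a CPM (counts scaled to library size) of at least 1 in 3 or more of those 6 libraries, which left 13786 of the 27968 genes in the files. The 3 A549 control siRNA libraries and the 3 siRNA2 libraries served only for reference levels.

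The study knocked down BLM with siRNAs in A549 and in the breast cancer line MDA-MB-231, and sequenced total RNA after removal of ribosomal RNA. All 6 libraries compared here come from the same line, from cells kept in DMEM with 10% fetal bovine serum, so they differ in the labels by the siRNA alone. The protocols describe both a flat culture and a 3D culture, and the labels do not tie a library to either, nor do they give the siRNA sequences or the time between transfection and harvest. Whether the replicates are independent cultures is not stated. The p-values therefore speak only of the spread among the deposited libraries, and that spread may be technical.

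BLM encodes a RecQ helicase that unwinds DNA structures arising at stalled replication forks and during homologous recombination. With TOP3A, RMI1 and RMI2 it takes apart double Holliday junctions without crossover, and its loss causes Bloom syndrome, marked by sister chromatid exchange and cancer. Both siRNAs share it as their intended target.

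BLM itself was at 1.22, 1.22 and 1.19 CPM in the 3 siRNA1 libraries and at 6.37, 6.18 and 6.94 CPM in the 3 siRNA3 libraries. The 3 controls stood at 83.1, 86.3 and 75.0 CPM, so all 6 knockdown libraries were far below every control. The siRNA1 and siRNA3 groups did not overlap in BLM, as in 9536 (69.2%) of all genes tested, and BLM was lower with siRNA1 by a log2 difference of -2.42 ± 0.147 (SE; adjusted p = 1.54e-06, edgeR quasi-likelihood test with Benjamini-Hochberg adjustment). Every log2 difference below is siRNA1 minus siRNA3 in that test, and a gene is called higher or lower where the adjusted p over all 13786 genes is under 0.05. Relative to control, BLM was lower by -6.07 with siRNA1 and by -3.65 with siRNA3 on the log2 scale. In the 3 siRNA2 libraries its mean was 10.8 CPM.

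Of the 13786 genes, 8651 (62.8%) were called, 4505 (32.7%) higher with siRNA1 and 4146 (30.1%) lower. With a log2 difference of at least 1 in size, 3052 genes (22.1%) remained, 1873 (13.6%) higher and 1179 (8.55%) lower. Calls were therefore the rule rather than the exception, and the count of a gene group is to be read against these shares and beside its median. Over all genes the median log2 difference was 0.02. On the deposited TPM values (abundances corrected for transcript length) the split was 5815 higher and 2565 lower, a share of 69.4% higher against 52.1% on counts. TPM values were tested with another tool, limma-trend, and without the scaling between libraries that was used for counts. On TPM the median of all genes was 0.23, so gene groups with small medians carry a direction that depends on the scaling.

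**Figure D1:**
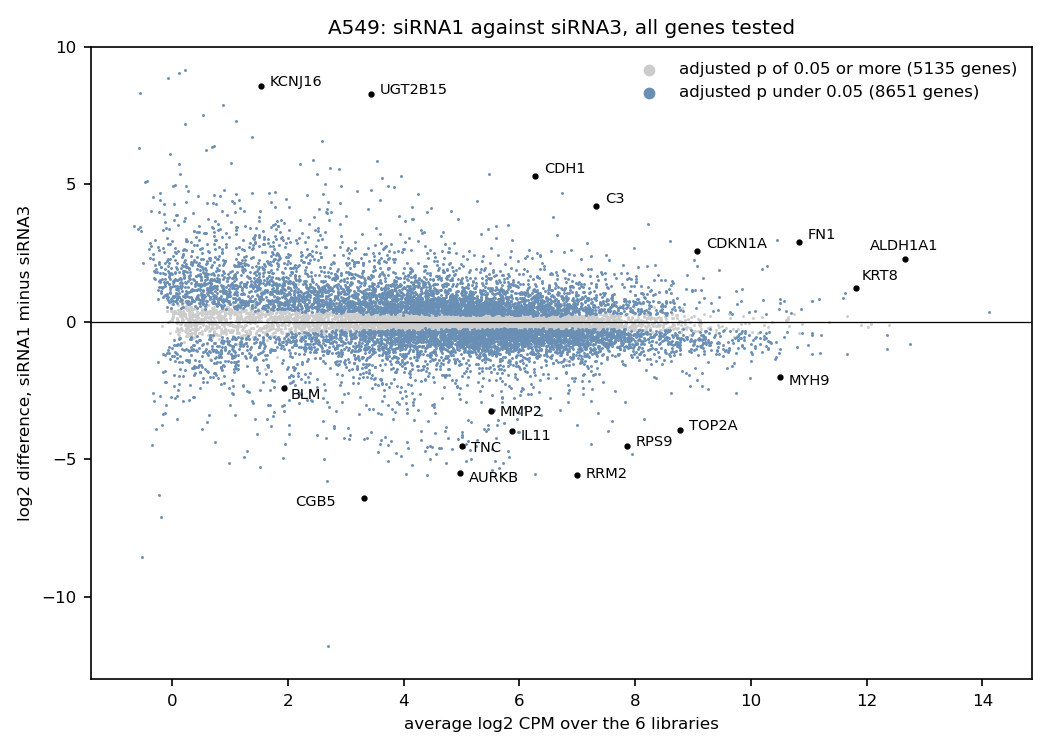
Log2 difference between siRNA1 and siRNA3 (y axis) against average log2 CPM over the 6 libraries (x axis), 1 point per gene, with the 8651 called genes in blue and named genes in black. Both arms of the cloud hold called genes. Among the labelled genes CGB5 is the lowest at -6.40 and KCNJ16 the highest at 8.57, and BLM lies at -2.42.

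siRNA3 replicate 3 stood apart from the other 5 libraries. The SD over genes of its deviation from the group mean was 0.299 on the log2 CPM scale, against 0.117 to 0.206 in the other 5 libraries. Its deviations ran against transcript length (Spearman correlation across genes -0.677, given as a description). Those of siRNA3 replicates 1 and 2 ran with it (0.575 and 0.496). Deviations from a group mean cancel within the group, so the values of replicates 1 and 2 in part mirror that of replicate 3. Genes were put in 5 equal groups by transcript length. In the shortest group, of median length 1273 bases, siRNA3 replicate 3 lay 0.23 above its group mean, and in the longest group, of median length 6685 bases, it lay 0.23 below. The 6 libraries held 30887830 to 37727038 estimated reads each. Without siRNA3 replicate 3, 9474 genes (68.7%) were called, 4894 higher and 4580 lower, and 3000 (21.8%) had a log2 difference of at least 1 in size, 1844 (13.4%) higher and 1156 (8.39%) lower. A total of 8420 genes were called both with and without it, all 8420 in the same direction.

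**Figure D2:**
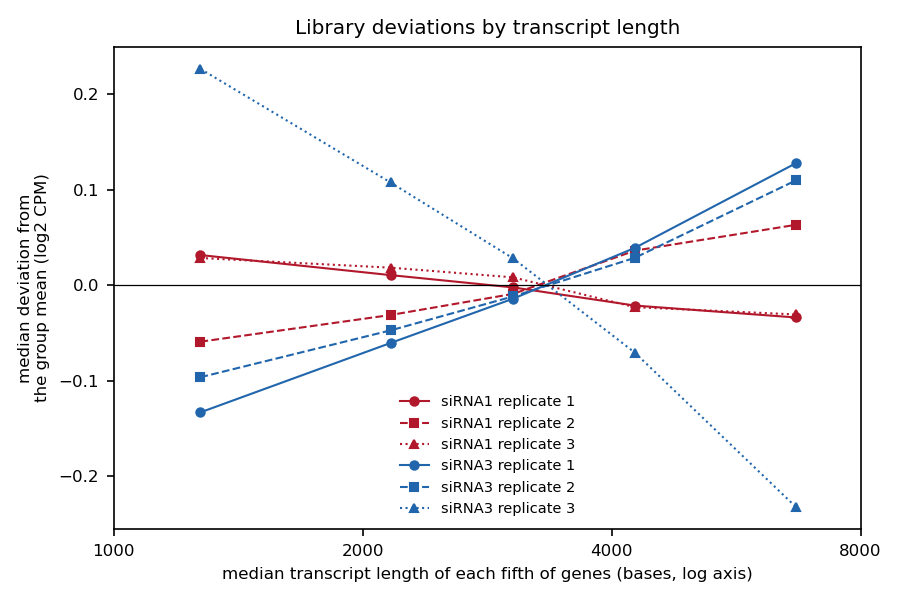
Median deviation of each library from its group mean in log2 CPM (y axis) for 5 equal groups of genes ordered by transcript length (x axis, median length in bases, log axis). siRNA3 replicate 3 runs from 0.23 to -0.23, and the 3 siRNA1 libraries stay between -0.06 and 0.06.

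Long transcripts carried this pattern in single genes. MKI67, which encodes the Ki-67 antigen of cycling cells, was at 558, 601 and 272 CPM in the siRNA3 libraries and at 14.8, 16.1 and 19.7 CPM in the siRNA1 libraries. Its log2 difference was -4.82 with all 6 libraries and -5.11 without siRNA3 replicate 3. MYH9, the heavy chain of non-muscle myosin IIA, was at 2794, 2783 and 1369 CPM with siRNA3 against 568, 553 and 611 CPM with siRNA1. The low siRNA3 replicate 3 left the MYH9 groups apart, with log2 differences of -2.004 and, without it, -2.28. COL12A1, a fibril-associated collagen, had log2 differences of -2.63 and -2.91.

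**Figure D3:**
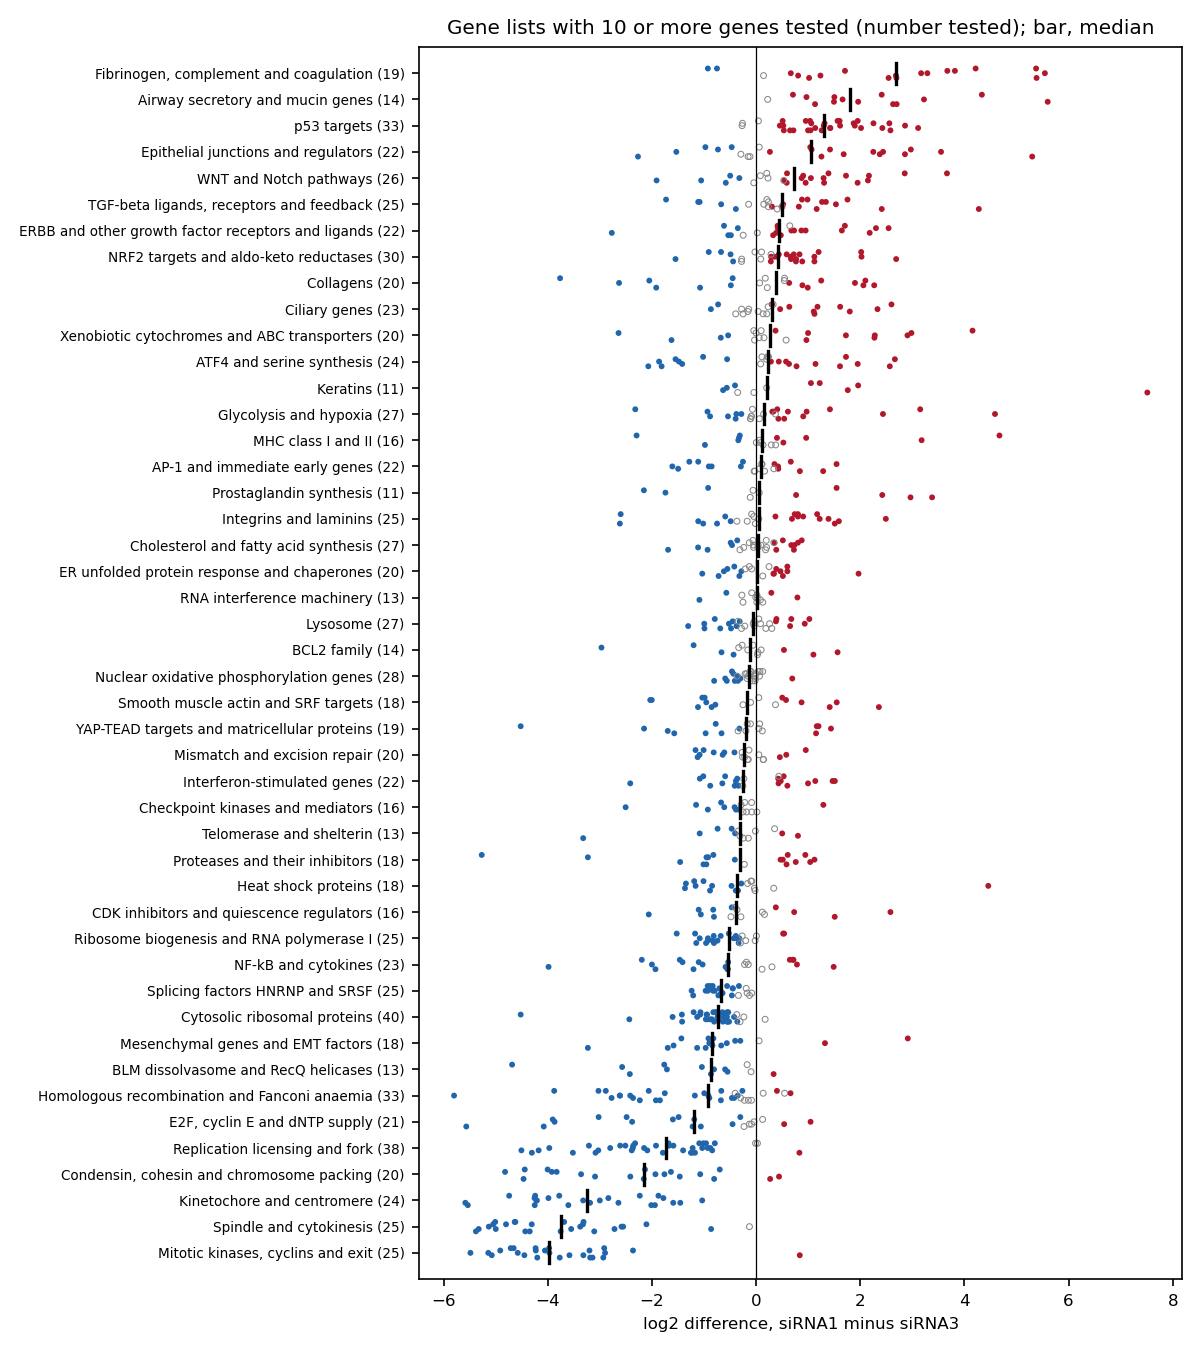
Log2 difference between siRNA1 and siRNA3 (x axis) for the members of each gene list with at least 10 genes tested (y axis, number tested in brackets), with called genes filled (red higher, blue lower with siRNA1), genes not called as open circles, and the list median as a black bar. Cell division lists lie at the bottom with medians down to -3.97, and fibrinogen and complement genes at the top with a median of 2.68.

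The genes of cell division were the groups with the lowest medians. Of 25 mitotic kinases, cyclins and exit factors, 24 were lower with siRNA1 and 1 was higher, with a median log2 difference of -3.97 against 0.02 over all genes. Of 24 kinetochore and centromere genes, all 24 tested were lower (median -3.25). Some of these, such as CENPA (0.937, 0.690 and 0.912 CPM with siRNA1), passed the filter of at least 1 CPM through the siRNA3 libraries alone. Members of that kind could only be lower with siRNA1, so the filter favoured the direction of this count and median. Of 25 spindle and cytokinesis genes, 24 were lower (median -3.75), and KIF18A, a plus-end kinesin, was not called. Without siRNA3 replicate 3 these counts were 24, 24 and 24, with medians of -4.08, -3.26 and -3.88.

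AURKB, the kinase of the chromosomal passenger complex, was at 1.27, 1.35 and 1.49 CPM with siRNA1 and at 56.9, 57.0 and 70.6 CPM with siRNA3. Its controls stood at 88.5, 99.3 and 91.2 CPM, above all 6 libraries. The log2 difference of AURKB was -5.49 ± 0.152 (adjusted p = 3.58e-08, edgeR quasi-likelihood test). KIF20A, a kinesin of the cytokinetic midzone, was at 2.38, 2.62 and 2.32 CPM with siRNA1 and at 90.4, 101 and 103 CPM with siRNA3 (log2 difference -5.33). BIRC5, which encodes the passenger complex subunit survivin, was at 3.25 ± 0.529 CPM with siRNA1 and 151 ± 25.1 CPM with siRNA3 (SD, n = 3 each; log2 difference -5.54), and its control mean was 147 CPM. In BIRC5 the siRNA3 level was therefore close to control, while in AURKB it lay below all 3 controls.

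Further members behaved alike in direction and size. NUF2, a subunit of the kinetochore complex that binds microtubules, had a log2 difference of -5.58, and CENPA, the histone variant of centromeres, one of -4.74. DLGAP5 and HMMR, which act in spindle assembly, had log2 differences of -5.38 and -5.01. BUB1, NEK2 and TTK, kinases of the checkpoint and of centrosome separation, lay between -3.97 and -4.58. The exception was CDC25B, a phosphatase that activates cyclin-dependent kinases, at 171 CPM with siRNA1 and 95.5 CPM with siRNA3 (log2 difference 0.84), with a control mean of 319 CPM.

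The promoters of several of these genes carry a pair of elements known from cell cycle genes: the cell cycle homology region, of sequence TTTGAA, and the CCAAT box. In the 250 bases before the start site, RefSeq windows (GRCh38.p14) were available for 23 of the 25 spindle and cytokinesis genes. Both strands were searched and matches could overlap. TTTGAA was present in 13 of these 23 (56.5%) and CCAAT in 17 (73.9%), and 11 (47.8%) held both, compared with 16.1%, 37.0% and 5.79% of all 27305 genes with a window. CCAAT alone was as frequent in other lists, at 90.0% of unfolded protein response genes and 75.0% of RNA interference genes. TTTGAA was in 37.5% of TGF-beta genes. Both together were in 0.0%, 0.0% and 16.7% of these lists. A match is a description of the letters only. The 150 bases before the start are printed 5′ to 3′ on the gene's strand for 4 members that hold both, because they show how the pair is placed, with TTTGAA and CCAAT or their reverse complements in capitals.
DLGAP5, chr14:55191586-55191735, - strand: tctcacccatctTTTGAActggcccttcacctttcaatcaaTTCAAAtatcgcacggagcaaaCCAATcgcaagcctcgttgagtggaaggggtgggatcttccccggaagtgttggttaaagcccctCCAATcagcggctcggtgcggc
HMMR, chr5:163460482-163460631, + strand: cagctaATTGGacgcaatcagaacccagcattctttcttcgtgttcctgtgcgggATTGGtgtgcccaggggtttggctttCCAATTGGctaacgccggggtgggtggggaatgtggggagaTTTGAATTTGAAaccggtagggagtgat
CKAP2L, chr2:112764610-112764759, - strand: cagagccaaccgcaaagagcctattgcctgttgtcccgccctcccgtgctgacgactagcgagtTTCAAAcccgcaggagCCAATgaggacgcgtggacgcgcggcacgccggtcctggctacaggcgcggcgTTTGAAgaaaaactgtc
KIF4A, chrX:70289954-70290103, + strand: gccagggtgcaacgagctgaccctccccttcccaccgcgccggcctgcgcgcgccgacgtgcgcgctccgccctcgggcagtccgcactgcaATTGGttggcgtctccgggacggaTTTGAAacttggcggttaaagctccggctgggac
In HMMR the CCAAT matches on opposite strands share bases, and its pair of TTTGAA matches lies side by side.

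Chromosome packing and replication genes followed in the order of medians. Of 20 condensin, cohesin and packing genes, 18 were lower and 2 higher (median -2.15, and 18 and 2 without siRNA3 replicate 3). TOP2A, the topoisomerase that untangles sister chromatids, was at 52.2, 58.1 and 53.1 CPM with siRNA1 and at 852, 932 and 694 CPM with siRNA3 (log2 difference -3.92). Of 38 replication licensing and fork genes, 35 were lower and 1 higher, GINS4 at 0.83, a subunit of the replicative helicase complex, with a median of -1.74. PCNA, the sliding clamp, and LIG1, the ligase of lagging strands, were not called. CDC6, which loads the helicase at origins, was at 5.04, 4.83 and 5.58 CPM with siRNA1 and at 74.1, 84.7 and 83.5 CPM with siRNA3 (log2 difference -3.97). MCM10, CDC45 and ORC1 had log2 differences of -4.51, -4.31 and -3.52.

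The replication genes are known for E2F sites. Among 34 of 38 replication genes with a window, the E2F site TTTGGCG stood in 10 (29.4%), TTTCGCG in 3 (8.82%) and either of them in 11 (32.4%), compared with 1.95%, 1.35% and 3.24% of all genes with a window. TTTGAA was in 0 of the 34 windows. The windows of 3 members are printed with the E2F match in capitals. In these 3 the match lies within 30 bases of the start, and its place in the other members is not given.
CDC45, chr22:19479770-19479919, + strand: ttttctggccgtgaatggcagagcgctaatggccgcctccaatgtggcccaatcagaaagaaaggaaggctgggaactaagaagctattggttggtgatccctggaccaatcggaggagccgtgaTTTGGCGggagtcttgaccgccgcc
CDT1, chr16:88803639-88803788, + strand: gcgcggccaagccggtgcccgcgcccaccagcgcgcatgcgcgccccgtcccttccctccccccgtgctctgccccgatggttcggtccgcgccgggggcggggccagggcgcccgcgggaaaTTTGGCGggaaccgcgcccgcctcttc
CDC6, chr17:40287729-40287878, + strand: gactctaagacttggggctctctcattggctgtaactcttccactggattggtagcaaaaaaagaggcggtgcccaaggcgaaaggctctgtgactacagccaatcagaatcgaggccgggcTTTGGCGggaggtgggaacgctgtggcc

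In the list of E2F, cyclin E and nucleotide supply genes, 14 of 21 were lower, 2 were higher and the median was -1.19. RRM2, the small subunit of ribonucleotide reductase, was at 4.81, 5.14 and 5.94 CPM with siRNA1 and at 234, 234 and 283 CPM with siRNA3, while its controls were at 253, 280 and 264 CPM. RRM2B, the p53-inducible small subunit, went the other way at 217, 291 and 196 CPM with siRNA1 and 133, 110 and 98.3 CPM with siRNA3 (log2 difference 1.05). E2F1 and E2F8 had log2 differences of -2.38 and -4.08.

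**Figure D4:**
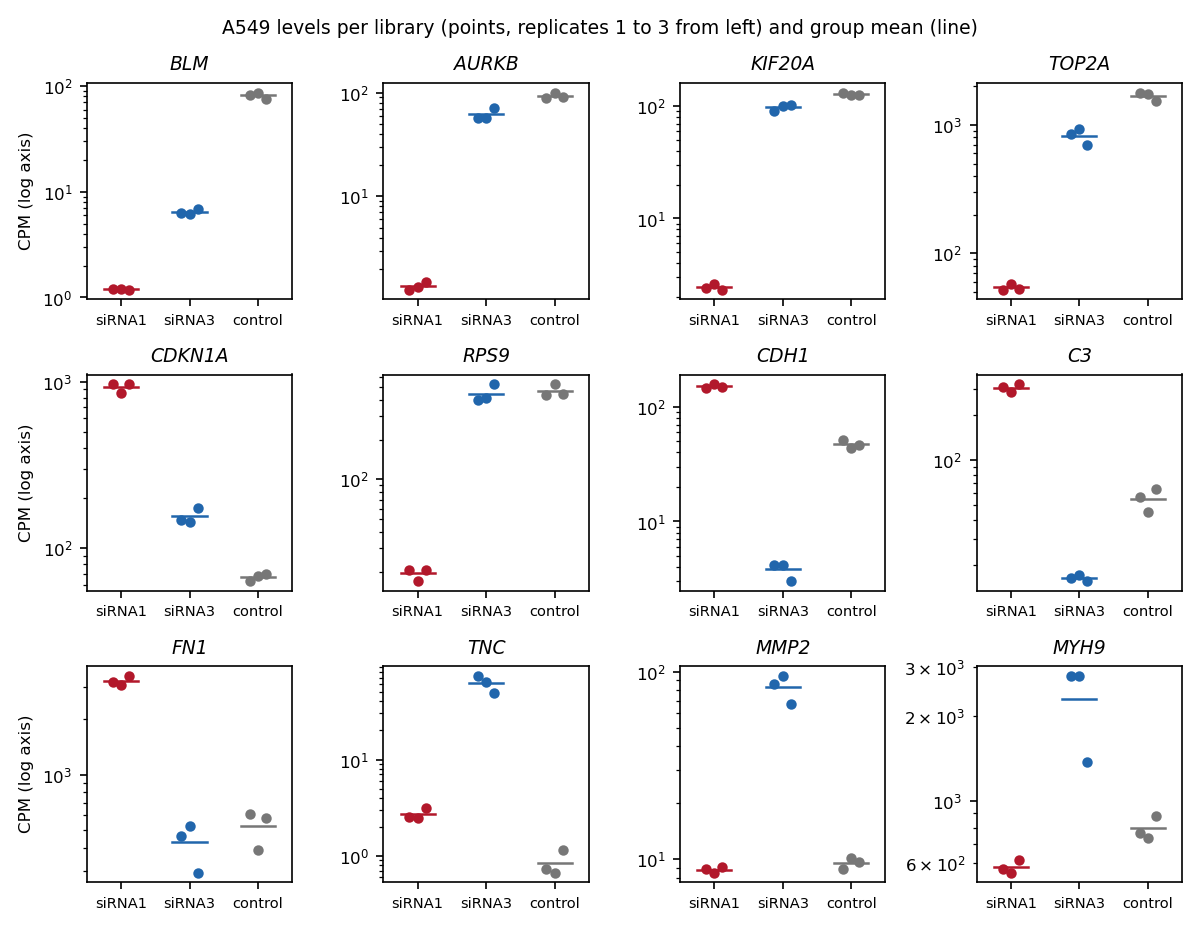
CPM (y axes, log scale) in each of the 3 siRNA1, 3 siRNA3 and 3 control A549 libraries (points, replicates from left to right) with the group mean as a line, for 12 genes. AURKB and TOP2A are lowest with siRNA1 and highest in controls, CDKN1A is highest with siRNA1, and TNC and MMP2 are highest with siRNA3.

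Recombination, the largest of the DNA repair lists, had the most members lower with siRNA1 by count. Of 33 homologous recombination and Fanconi anaemia genes, 24 were lower and 2 higher (median -0.92). FANCD2 and FANCI, the partners that are monoubiquitinated at stalled forks, had log2 differences of -2.36 and -2.06, and BRIP1, a helicase that binds BRCA1, had -2.78. Of the 13 BLM partners and RecQ helicases, BLM included, 10 were lower and 1 was higher (RECQL5, 0.34, adjusted p = 0.0405). Without siRNA3 replicate 3 RECQL5 had an adjusted p of 0.0772 and was not called. EXO1, the nuclease that resects break ends, had a log2 difference of -4.68, and DNA2 and RMI2 had -1.71 and -1.76. Of 16 checkpoint genes, 8 were lower (5 on the TPM scale; median -0.31) and CHEK2, a kinase of the double-strand break response, was higher (log2 difference 1.29). Of 20 mismatch and excision repair genes, 8 were lower and 3 higher (median -0.24), beside all-gene shares of 30.1% lower and 32.7% higher. A median of that size depends on the scaling.

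The p53 targets went the opposite way. Of 33 tested, 30 were higher with siRNA1, 0 were lower, and the median log2 difference was 1.298. BAX, CCNG1 and GADD45A were not called. Without siRNA3 replicate 3 the count was again 30, with a median of 1.21. CDKN1A, the inhibitor of cyclin-dependent kinases known as p21, was at 962, 850 and 961 CPM with siRNA1, at 148, 143 and 173 CPM with siRNA3 and at 63.2, 67.6 and 69.8 CPM in controls. The groups did not overlap, and CDKN1A differed by 2.58 ± 0.121 (adjusted p = 3.47e-07, edgeR quasi-likelihood test). FDXR, the ferredoxin reductase of mitochondria, was at 252 ± 25.7 CPM with siRNA1 and 34.7 ± 1.64 CPM with siRNA3 (SD, n = 3), the latter beside a control mean of 34.9 CPM. GDF15, a stress-induced cytokine, and FAS, a death receptor, had log2 differences of 3.11 and 2.56. Relative to control, the median of the 33 targets was 2.28 with siRNA1 and 0.75 with siRNA3. These comparisons share the 3 control libraries.

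**Figure D5:**
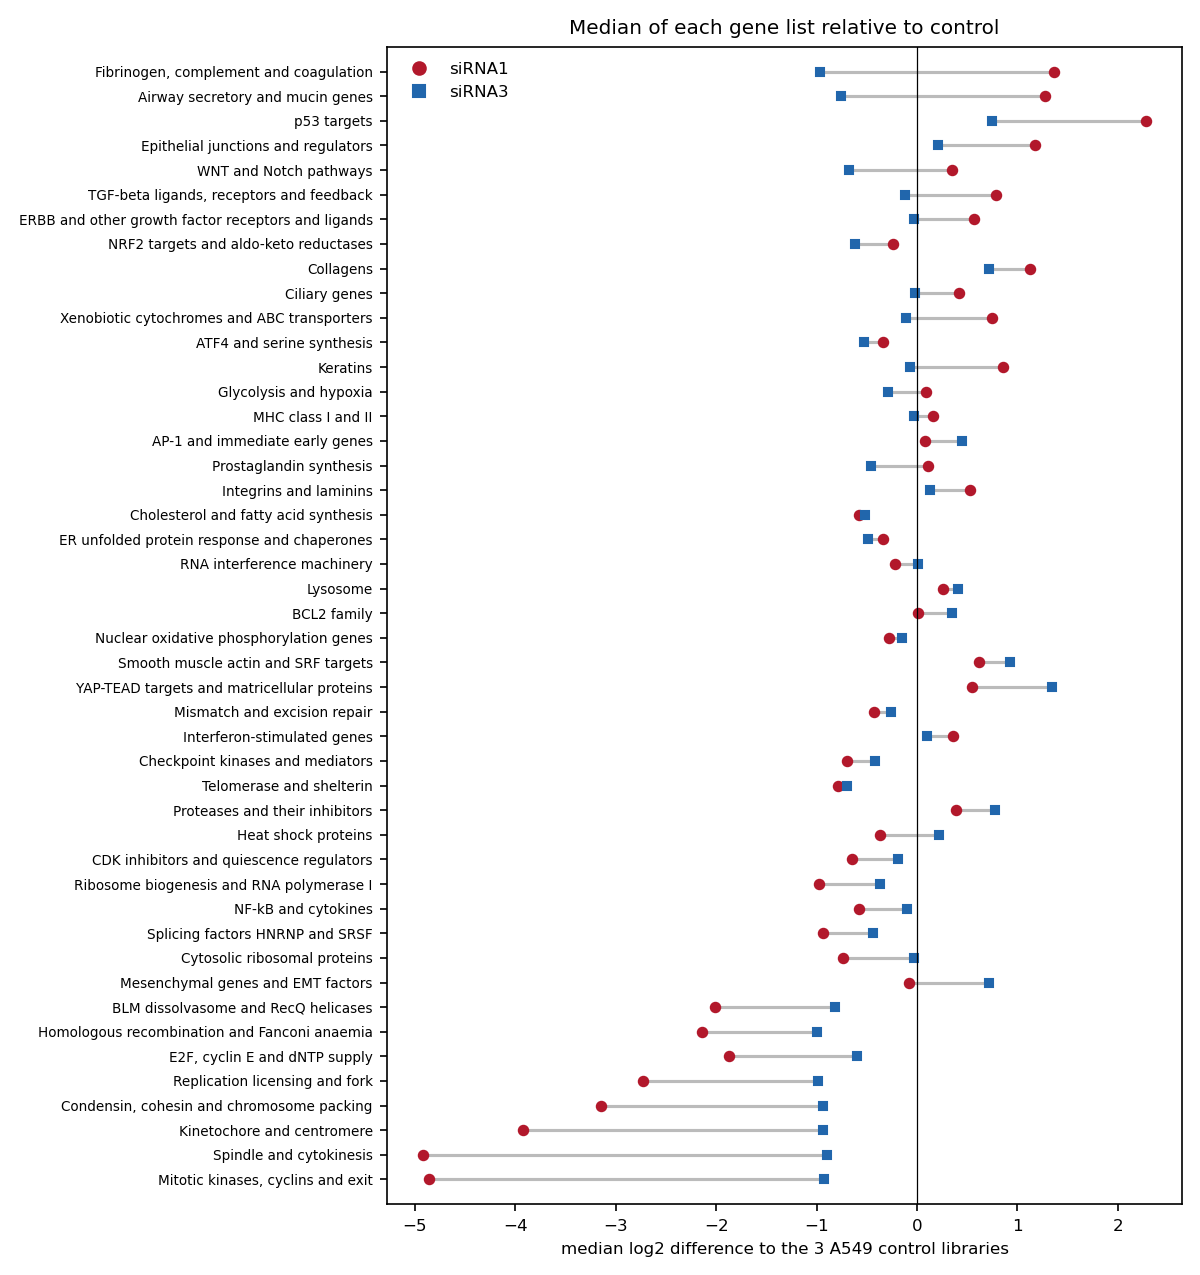
Median log2 difference to the 3 A549 control libraries (x axis) for siRNA1 (circles) and siRNA3 (squares) in each gene list with 10 or more genes tested (y axis). The mitotic kinase list is at -4.86 with siRNA1 and -0.93 with siRNA3, the p53 target list at 2.28 and 0.75, and the fibrinogen and complement list at 1.36 and -0.97.

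The genes with the highest log2 differences were rare or absent with siRNA3. KCNJ16, an inwardly rectifying potassium channel, had 227, 195 and 189 reads with siRNA1 and 0, 1 and 0 with siRNA3, a ratio of 557 (95% counting interval 99.5 to 22019). UGT2B15, a glucuronosyltransferase that conjugates steroids, had 750, 899 and 720 reads with siRNA1 and 0, 0 and 6 with siRNA3. UGT2B28, UGT2B11 and UGT2B10 went the same way. These are close paralogs, so reads may be shared between them by the quantifier. Such genes passed the abundance filter through the siRNA1 libraries alone, and their fitted differences (8.29 for UGT2B15) are no bound. RGMA, SCARA5, NTS, GRIN2C and MUC19 completed the 10 highest, with fitted log2 differences from 5.60 to 6.71. At the other end, the 10 lowest included CGB5, NUF2, RRM2, FAM111B, BIRC5, AURKB, DLGAP5, KIF20A and MMP9, with log2 differences from -6.40 to -5.27. Of these, CGB5, FAM111B and MMP9 passed the filter through the siRNA3 libraries alone, so they could only be lower with siRNA1.

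Fibrinogen, complement and coagulation genes held the highest median of the lists with 10 or more genes tested: 16 of 19 were higher with siRNA1 and 2 lower, with a median of 2.68. C3, the central complement component, was at 307, 287 and 321 CPM with siRNA1, at 16.4, 17.2 and 15.6 CPM with siRNA3 and at 56.5, 45.2 and 64.1 CPM in controls. The controls of C3 lay between the groups, and its log2 difference was 4.21 ± 0.111 (adjusted p = 3.35e-08, edgeR quasi-likelihood test). C5, the component that starts the terminal pathway, had a log2 difference of 3.82, and the proteases C1S and C1R of the classical pathway had 3.17 and 2.69. Airway secretory and mucin genes were higher in 13 of 14 tested (median 1.81), among them AGR2 at 204 ± 6.47 CPM against 33.0 ± 9.14 CPM (SD, n = 3). The list held 24 genes, and the others did not pass the abundance filter. Some members passed it through the siRNA1 libraries alone, such as MUC19 (24 reads in all with siRNA3) and the complement gene CFI (28 reads). Members of that kind could only be higher with siRNA1, so the filter favoured the direction of these counts and medians. MUC5B, a gel-forming mucin with a long transcript, had a log2 difference of 3.22 and, without siRNA3 replicate 3, of 2.87. CEACAM6, a cell surface adhesion protein of epithelia, was at 203, 204 and 209 CPM with siRNA1 and at 7.86, 7.91 and 8.36 CPM with siRNA3.

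Epithelial and mesenchymal genes were called in opposite directions in most members. Of 22 epithelial junction genes, 13 were higher with siRNA1 and 5 lower (median 1.05). CDH1, the adhesion molecule E-cadherin, was at 146, 157 and 149 CPM with siRNA1 and at 4.21, 4.21 and 3.02 CPM with siRNA3, with controls at 51.9, 43.7 and 46.7 CPM. The controls lay between the groups, and CDH1 differed by 5.30 ± 0.150 (adjusted p = 3.91e-08, edgeR quasi-likelihood test). CLDN4, a tight junction claudin, was lower with siRNA1 (log2 difference -2.27). Of 18 mesenchymal genes, 15 were lower with siRNA1 (8 on the TPM scale) and 2 were higher, FN1 and S100A4 (median -0.84).

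MMP2, a gelatinase that cuts basement membrane, was at 8.83, 8.51 and 9.06 CPM with siRNA1 and at 86.0, 94.9 and 66.8 CPM with siRNA3 (log2 difference -3.23). Its controls stood at 8.92, 10.1 and 9.67 CPM, near the siRNA1 level. AXL, a receptor tyrosine kinase, and VIM, the intermediate filament of mesenchymal cells, had log2 differences of -1.70 and -1.13. FN1, the matrix glycoprotein fibronectin, was at 3166, 3070 and 3438 CPM with siRNA1 and at 466, 525 and 293 CPM with siRNA3, and its control mean was 525 CPM. For FN1 the control mean was near that of siRNA3, where for MMP2 it was near that of siRNA1.

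Matrix and contractile genes included large differences in both directions. TNC, the matricellular protein tenascin C, was at 2.53, 2.46 and 3.12 CPM with siRNA1 and at 73.6, 63.1 and 49.4 CPM with siRNA3, and at 0.737, 0.674 and 1.14 CPM in controls. CYR61 and CTGF, secreted targets of YAP, had log2 differences of -2.15 and -1.57, but of 19 YAP targets and matricellular genes 8 were lower and 4 higher (median -0.20). Of 20 collagens, 8 were higher and 7 lower, beside all-gene shares of 32.7% and 30.1%, with a median of 0.38 that was 0.15 without siRNA3 replicate 3. Among them were COL4A1 at -2.05, COL5A2 at 1.90 and COL17A1 at 2.098. ACTA2, the smooth muscle actin, was at 122 ± 3.32 CPM with siRNA1, 45.9 ± 5.04 CPM with siRNA3 and 2.49 ± 0.163 CPM in controls. TPM1, a tropomyosin of the same contractile list, was lower with siRNA1 (log2 difference -2.03).

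Signalling genes also split by family. Of 25 TGF-beta and BMP genes, 13 were higher and 5 lower (median 0.50), with the BMP-responsive ID1 at 2.41 and the receptor TGFBR1 at -1.73. The ligand BMP2 was rare, with 333 reads in the siRNA1 libraries together and 14 in the siRNA3 libraries, a ratio of 21.7 (95% counting interval 12.7 to 40.1). It passed the abundance filter through the siRNA1 libraries alone, so it could only be higher. Of 26 WNT and Notch genes, 16 were higher and 5 lower (median 0.73), among them the receptor NOTCH3 at 2.85 and the WNT feedback gene AXIN2 at 1.95. Of 23 NF-kB and cytokine genes, 13 were lower and 5 higher (median -0.54). IL11, a cytokine of the IL-6 family, was at 7.09, 6.38 and 7.40 CPM with siRNA1, at 101, 106 and 123 CPM with siRNA3 and at 10.4 ± 1.19 CPM (SD, n = 3) in controls. MYC, a growth-promoting transcription factor, had a log2 difference of -1.50.

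Genes of protein synthesis were lower by smaller amounts. Of 40 cytosolic ribosomal proteins, 36 were lower with siRNA1 and 0 higher, with a median of -0.73. Without siRNA3 replicate 3 the counts were 37 and 1, with a median of -0.57. RPL4 and RPL3, both of the large subunit, had log2 differences of -1.13 and -1.60. Of 25 splicing factors 20 were lower (median -0.67), and of 25 ribosome biogenesis genes 18 were lower and 2 higher (median -0.52). Of 18 heat shock proteins, 11 were lower, among them HSP90AA1 at -1.16 (median -0.37). CRYAB, a small chaperone, was higher, with 799 reads in all with siRNA1 and 30 with siRNA3, a ratio of 24.3 (95% counting interval 16.9 to 36.2).

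RPS9, a protein of the small ribosomal subunit, lay far outside the rest of its list. It was at 20.7, 16.9 and 20.5 CPM with siRNA1 and at 398, 412 and 524 CPM with siRNA3, a log2 difference of -4.52 ± 0.158 (adjusted p = 8.50e-08, edgeR quasi-likelihood test). The controls were at 434, 523 and 442 CPM and the siRNA2 libraries had a mean of 501 CPM, so among the 12 A549 libraries the low values were those of siRNA1. In MDA-MB-231 cells RPS9 was at 34.6 ± 2.97 CPM of the library total with siRNA1 and at 265 ± 26.1 CPM in controls (SD, n = 3 each). Those libraries do not enter the comparison, and the reason was not tested. The next lowest ribosomal protein was RPL13A at -2.43, with 192 CPM against 1038 CPM.

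Genes of metabolism and detoxification had members among the most abundant. ALDH1A1, a retinaldehyde dehydrogenase, had means of 10731 CPM with siRNA1, 2222 CPM with siRNA3 and 6312 CPM in controls, a log2 difference of 2.27. ALDH3A1, another aldehyde dehydrogenase, had a log2 difference of 2.98. Of 30 NRF2 targets and aldo-keto reductases, 19 were higher and 5 lower (median 0.42), with GPX2, a glutathione peroxidase, at 2.69 and SLC7A11, the cystine transporter, at -1.55. The aldo-keto reductase AKR1C2 was at 2.02, and its near-identical copy AKR1C1 at 0.76, so their reads may be divided between them by the quantifier. In the list of glycolysis and hypoxia genes, 12 of 27 were higher and 7 lower (median 0.14), with PGK1, a glycolytic kinase, at -2.32. CA9, a hypoxia-induced carbonic anhydrase, had 355 reads in all with siRNA1 and 12 with siRNA3, a ratio of 26.9 (95% counting interval 15.2 to 52.6). Of 28 nuclear genes of oxidative phosphorylation, 9 were lower, a share near that of all genes, and 1 was higher (median -0.14). Without siRNA3 replicate 3, 8 were lower and 5 higher and the median was 0.05, so this list had no stable direction.

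Markers of leukocytes, endothelium and fibroblasts were low in both groups. Of 14 leukocyte markers, 7 were at 0 in all 6 libraries, and PTPRC was under 1 CPM in each. Their summed level ran from 26.6 to 29.2 CPM with siRNA1 and from 41.1 to 42.3 CPM with siRNA3. Of the 3 tested, 1 was higher with siRNA1 and 2 were lower. Of 10 endothelial markers, 8 were under 1 CPM in all 6 libraries, and of 10 fibroblast markers 5. Of 14 alveolar type 2 markers, 8 were under 1 CPM in every library, surfactant genes SFTPB and SFTPC included. The list summed to 215 to 224 CPM with siRNA1 and 319 to 378 CPM with siRNA3, with ABCA3 and LPCAT1 among the expressed members. A sum is carried by its most abundant members. Of the 5 tested, 2 were higher with siRNA1 and 3 lower, so the markers had no common direction. Luminal breast markers, which include keratins of simple epithelia, summed to 9212 to 10949 CPM with siRNA1 and 4024 to 4472 CPM with siRNA3. Of the 8 tested, 6 were higher with siRNA1 and 1 was lower. In this list KRT8 and KRT18 were among the most abundant genes, with log2 differences of 1.22 and 1.05. In RNA from whole cultures, fewer cells of a type and less RNA per cell cannot be told apart.

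The position of the controls was then taken for genes with a log2 difference of at least 1 in size. Of the 1873 higher with siRNA1, all 3 controls lay between the groups in 668 (35.7%), below all 6 libraries in 360 (19.2%) and above all 6 in 96 (5.13%), and they overlapped a group in the other 749. Of the 1179 lower with siRNA1, all 3 controls lay above all 6 libraries in 426 (36.1%), between the groups in 273 (23.2%) and below all 6 in 138 (11.7%). AURKB and TOP2A have controls above all 6 libraries, CDH1 and C3 have controls between the groups, and CDKN1A has controls below all 6.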

How the data were processed

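RNA was measured in 18 libraries, of which the 12 A549 libraries were analysed, with 1 gene (RPS9) also read in the 6 MDA-MB-231 libraries. The authors deposited expected counts per gene symbol, estimated with RSEM; the genome hg19 is also named, per the submitters' processing notes. For RSEM's version, the read aligner and the gene annotation, nothing is given in the sources used. TPM values, deposited already scaled to transcript length per the file headers, served as an alternative. They were tested with limma-trend and without TMM scaling. Between 10.2% and 11.7% of expected counts were not whole in the 6 libraries compared, since RSEM divides reads among similar transcripts.

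Expected counts were rounded and tested with edgeR 4.0.16 (R 4.3.3), TMM scaling and the quasi-likelihood F test, with the 2 groups as the only term and Benjamini-Hochberg adjustment over 13786 genes. Genes needed a CPM of at least 1 in 3 of the 6 libraries. A gene that reached this through a single group could only be higher in that group. This favoured that direction in the counts and medians of its lists. Such genes include BMP2, WNT4, CRYAB, CA9, HLA-DMB and FOXJ1 for siRNA1, and CENPA, SKA1, CGB5, MMP9, COL13A1 and TERT for siRNA3. CPM values of controls and siRNA2 were put on the scale of the 6 libraries through the same TMM reference library. Differences to control come from a fit of the 12 libraries on that scale and carry no test. Named genes are BLM, the 10 highest and 10 lowest log2 differences among called genes whose average log2 CPM reached 1 and whose groups do not overlap, the 10 most abundant called genes with a log2 difference of at least 1 in size (readthrough, antisense, small RNA, LINC, LOC and sex-linked marker symbols left out of these), and the extreme and smallest-p members of each list. The few others named from counts were chosen after their values were seen. Counting intervals cover counting error only, at the 95% level. Members and lists were chosen with earlier results of these data known. Alternatives were other scalings, filters and tools (DESeq2 1.42.0, limma 3.58.1), TPM, a replicate block and leaving out each library. The test was checked on simulated counts with few changed genes, balanced directions and no effect of transcript length. These data differ from that setting, so the check does not cover them. Promoter windows were matched by symbol, and lists with under 80% matched were not searched. Results for some genes are not reported here.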

Additional observations from a re-analysis of the deposited data

How the results depend on the processing

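Under 16 alternatives, none of the 326 named genes changed direction, and at least 318 kept their side of the threshold under each. Most of these genes were chosen as extreme or smallest-p members in the main fit, and the alternatives reuse the same libraries. The choice therefore favoured such stability. RECQL5 lost its call under 8 of the alternatives. Counts of called genes ran from 7234 to 9474 when 1 library was left out, from 3862 to 4894 for genes higher, and from 3372 to 4580 for genes lower with siRNA1. On log2(TPM + 1) the genes lower with siRNA1 numbered 2565, and on log2(TPM + 0.1) they numbered 2555, against 4146 on counts. Mesenchymal genes lower with siRNA1 numbered 8 and 8 on these scales against 15. The TPM settings also changed the test and left out TMM scaling. Which of these differences moved the counts was not tested. The majority side changed with DESeq2's Wald test (4362 higher, 4368 lower) and with all 12 A549 libraries in 1 fit (4488 higher, 5184 lower), and with upper quartile factors 58.7% of calls were higher. On TPM, 7 further list counts moved by over 1.5 times on both scales: lower members of the checkpoint (8 to 5), telomerase (5 to 3), interferon (10 to 5), oxidative phosphorylation (9 to 4) and alveolar type 2 lists (3 to 1), and higher members of the MHC (5 to 8) and metallothionein lists (1 to 2). On log2(TPM + 0.1) lysosome genes also moved (10 to 6 lower). Leaving out single libraries moved checkpoint genes to 5 lower, oxidative phosphorylation genes to 5 lower, unfolded protein response genes from 8 to between 4 and 5 higher, RNA interference genes from 2 to 1 higher and metallothioneins from 1 to 2 higher. Oxidative phosphorylation genes were 4 lower with upper quartile factors, telomerase genes 9 lower with all 12 libraries in 1 fit, and RNA interference genes 1 higher under 5 settings of scaling, filter, tool or block. The labels number the replicates 1 to 3, but same-numbered libraries did not deviate together (correlations across genes -0.24, -0.12 and 0.04). Pairs of different number ran from -0.20 to 0.30. Whether libraries of the same number were prepared together cannot be told from these values. With the replicate number as a block, 8337 genes were called, 4383 higher and 3954 lower. Depth limits the genes with few reads in 1 group, such as KCNJ16 with 1 read in the 3 siRNA3 libraries.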

Other observations

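Some further gene groups held large differences in both directions. Their counts stand beside all-gene shares of 32.7% higher and 30.1% lower. Of 22 interferon-stimulated genes, 9 were higher and 10 lower with siRNA1 (median -0.24), with IRF7 at 1.51 and OASL at -2.42 on the log2 scale. In the MHC group, 5 of 16 were higher and 5 lower (median 0.11). HLA-DMB, a chaperone of class II peptide loading, was at 4.66, 4.31 and 5.28 CPM with siRNA1 and at 0.0864, 0.267 and 0.208 CPM with siRNA3. It passed the abundance filter through the siRNA1 libraries alone, so it could only be higher. B2M, the light chain of class I, had a log2 difference of -0.98. Of 11 genes of prostaglandin and leukotriene synthesis, 5 were higher and 3 lower (median 0.06), with PTGS2 at 104 CPM against 13.3 CPM and PTGS1 at 1.23 CPM against 5.50 CPM. Of 23 ciliary genes, 11 were higher and 2 lower (median 0.30), among them RSPH1 at 2.60 and CCDC40 at 1.80. Without siRNA3 replicate 3 the counts were 10 and 3, with a median of 0.21. FOXJ1 of this list passed the abundance filter through the siRNA1 libraries alone, so it could only be higher.

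Some genes were found at a high level with siRNA3 alone among siRNA1, siRNA3 and control. CGB5, a chorionic gonadotropin beta subunit with near-identical copies, had 636, 572 and 641 reads with siRNA3, 12, 4 and 10 with siRNA1 and 5, 2 and 4 in controls. PDGFB, a platelet-derived growth factor subunit, was at 40.4, 48.7 and 43.9 CPM with siRNA3, with means of 6.49 CPM with siRNA1 and 6.60 CPM in controls. TERT, the catalytic subunit of telomerase, showed another order, with means of 0.161 CPM with siRNA1, 1.65 CPM with siRNA3 and 6.82 CPM in controls. Both CGB5 and TERT passed the abundance filter through the siRNA3 libraries alone, so they could only be lower with siRNA1.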
